A study of Mus musculus with 4 samples.

Results

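The genes described here are 10 heat shock protein genes, Hspa1a, Hspa1b, Dnajb1, Hsph1, Hspa8, Hsp90aa1, Hspb1, Hspe1, Hspd1 and Hspb8, out of 35963 genes in the tables, together with the sum of Hspa1a and Hspa1b. They were taken by symbol, and all 10 were found. The list was chosen by values of these data, the difference of several members between the fasted and the fed plates, with earlier results known. The study worked with C57BL/6 mice that carry the alleles Lepr-cre;Rosa-LSL-tdTomato, sorted red hypothalamic cells into plates of 384 wells, 1 cell to a well, and sequenced them with CEL-seq2. Plates 1, 2 and 3 came from fed mice, and 1 plate came from mice that had gone without food for 24 h. Cre is driven by the Lepr gene, so the red reporter marks every cell in which that gene was ever active, in both groups alike. The sources used here give neither the number nor the sex of the animals behind a plate, so the p-values measure the spread between plates only. Since only 1 plate was fasted, the effects of plate and of feeding cannot be told apart. All cells were lysed at 65 °C in their wells, on fed and fasted plates alike.

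Heat shock proteins are chaperones that hold or refold other proteins. When unfolded proteins build up, for instance after warming or during the dissociation of a tissue, the transcription factor HSF1 is released, forms trimers and binds inverted GAA units in the promoters of its target genes. Neurons are known for a high threshold of this response, while endothelial and glial cells induce it readily. Hspa1a (ENSMUSG00000091971, chromosome 17, 34969190 to 34972156, GRCm38) and Hspa1b (ENSMUSG00000090877, chromosome 17, 34956436 to 34959238) encode the inducible HSP70, and Hspa8 (chromosome 9, 40800984 to 40810087) the constitutive one. Dnajb1 (chromosome 8, 83608193 to 83612653) encodes an HSP40 that delivers clients to HSP70, and Hsph1 (chromosome 5, 149614287 to 149636376) the nucleotide exchange factor HSP110. Hsp90aa1 (chromosome 12, 110690605 to 110702728) encodes the inducible HSP90. Hspb1 (chromosome 5, 135887919 to 135889563) and Hspb8 (chromosome 5, 116408491 to 116422864) encode small heat shock proteins, which hold unfolded proteins without ATP. Hspd1 (chromosome 1, 55077835 to 55088243) and Hspe1 (chromosome 1, 55088132 to 55091307) encode the chaperonin HSP60 and its lid HSP10. These last proteins work in mitochondria, so the name cytosolic fits the other 8 genes only.

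Promoters are shown first because the paralogs Hspa1a and Hspa1b share theirs almost letter for letter. RefSeq promoters on GRCm38.p6, from 250 bases before to 50 after the start of transcription, were matched by symbol for 8 of the 10 genes. Over these 300 bases Hspa1a and Hspa1b were identical at 296 positions (98.7%). The window below spans bases 130 to 11 before the start of Hspa1a, chr17:34972167-34972286 on the minus strand, and its 120 bases are the same in Hspa1b at chr17:34959249-34959368, minus strand. Below it stand the same span of Hspb1 (chr5:135887789-135887908, plus strand) and of Dnajb1 (chr8:83608045-83608164, plus strand), and 30 bases before the start of Hspe1 (chr1:55088053-55088082, plus strand). Capitals mark GAANNTTC or TTCNNGAA, the inverted pairs of GAA units that HSF1 is known to bind. Both read the same on either strand, and matches may overlap.
Hspa1a: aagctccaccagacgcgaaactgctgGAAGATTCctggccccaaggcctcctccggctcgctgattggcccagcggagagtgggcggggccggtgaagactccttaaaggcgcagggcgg
Hspb1: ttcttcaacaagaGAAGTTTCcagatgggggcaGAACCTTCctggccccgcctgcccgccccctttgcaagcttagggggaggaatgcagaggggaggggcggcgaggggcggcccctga
Hspe1: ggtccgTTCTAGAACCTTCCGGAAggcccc
Dnajb1: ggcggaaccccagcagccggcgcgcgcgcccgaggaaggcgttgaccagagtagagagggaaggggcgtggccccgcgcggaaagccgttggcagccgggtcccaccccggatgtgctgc

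A match stood in at least 1 listed promoter of 7 of the 8 genes, all but Dnajb1. Of 32851 RefSeq promoters of the same length, each counted singly, 15.1% had a match, so the count by gene and this share are not alike. A pair of Dnajb1 promoters was listed, and neither had a match, nor did the other listed promoter of Hspd1. In Hspa1a and Hspa1b the match began 104 bases before the start. Hspb1 held matches that began 117 and 97 bases before it. Hspe1, Hspd1 and Hsph1 held 3 or more GAA units in alternating direction, as 0.603% of promoters did. The site of Hspe1 is shared with Hspd1, since these genes lie head to head. The alternating units of Hsph1 and the only match of Hspb8 lay after the start. These matches describe letters, not binding. Downstream, the coding parts of Hspa1a and Hspa1b were 99.5% identical, but their 3′ untranslated regions only 51.4% and the last 300 bases of the transcripts 52.8%. CEL-seq2 reads the 3′ end, so most reads of the pair fall where the paralogs differ. Since reads can still be shared, both genes are given, with their sum beside them in the main comparisons.

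Of 1536 wells 1279 were kept, 356, 322 and 331 on fed plates 1 to 3 and 270 on the fasted plate, with plate totals of 4402407 to 5535041 transcripts. Median transcripts per cell ran from 7753 to 13518, and median mitochondrial shares from 5.77 to 6.51% on fed plates against 8.33% on the fasted plate. Xist-only cells held Xist and no transcript of the Y-linked genes Uty, Ddx3y, Eif2s3y and Kdm5d, and Y-only cells the reverse. Xist-only cells were 6.74, 51.6 and 42% in fed plates against 84.4% in the fasted one, so the sex of the cells moved with feeding state. Cell classes are named "-like" from fixed marker genes, and the members took no part in the clustering. Clusters of AgRP-like neurons were mostly plate-specific, 1 cluster of 55 endothelial-like cells came from fed plate 1 alone, and all plates carry the same 384 well barcodes. Levels below are transcripts of a gene summed over the cells of a class on a plate and scaled to a total of 1000000 (CPM). Such a sum cannot tell fewer cells with the transcript from less of it per cell. The remaining cells of a plate are summed in the same way, so deep cells such as neurons weigh more in them. Because each transcript is counted once by its UMI, levels are not divided by gene length.

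Inducible HSP70 was unevenly spread over the cell classes. On fed plates 1, 2 and 3 the sum of Hspa1a and Hspa1b stood at 970.9, 861.7 and 1299 CPM in endothelial-like cells, 484.6, 588.8 and 544.5 in AgRP-like neurons and 689.3, 418.8 and 466.1 in VLMC-like cells, which resemble the vascular and leptomeningeal fibroblasts around vessels and brain. In other neurons it stood at 325.5, 345.7 and 372.4 CPM and in tanycyte-like cells, the glia that line the floor of the ventricle, at 192.7, 166.4 and 219.8. The fed means fell in the order endothelial-like (1044 ± 228 CPM, SD, n = 3 plates), AgRP-like (539 ± 52.3), VLMC-like (525 ± 145), other neurons (348 ± 23.5) and tanycyte-like (193 ± 26.7). Ranges over fed plates overlapped only between AgRP-like and VLMC-like among these neighbours. Astrocyte-like cells, at 22.47 and 39.15 CPM on fed plates 2 and 3, and oligodendrocyte precursor-like (OPC-like) cells, at 23.86 and 26.53, lay at the bottom. Pars tuberalis-like cells of fed plate 1 stood at 38.09 CPM. Pericyte-like cells (515.6 and 737.9 CPM on fed plates 1 and 3), oligodendrocyte-like cells (335.1 and 121.7 on fed plates 2 and 3) and ependymal-like cells (98.25 and 398.6 on the same plates) had few cells and wide ranges.

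**Figure D1:**
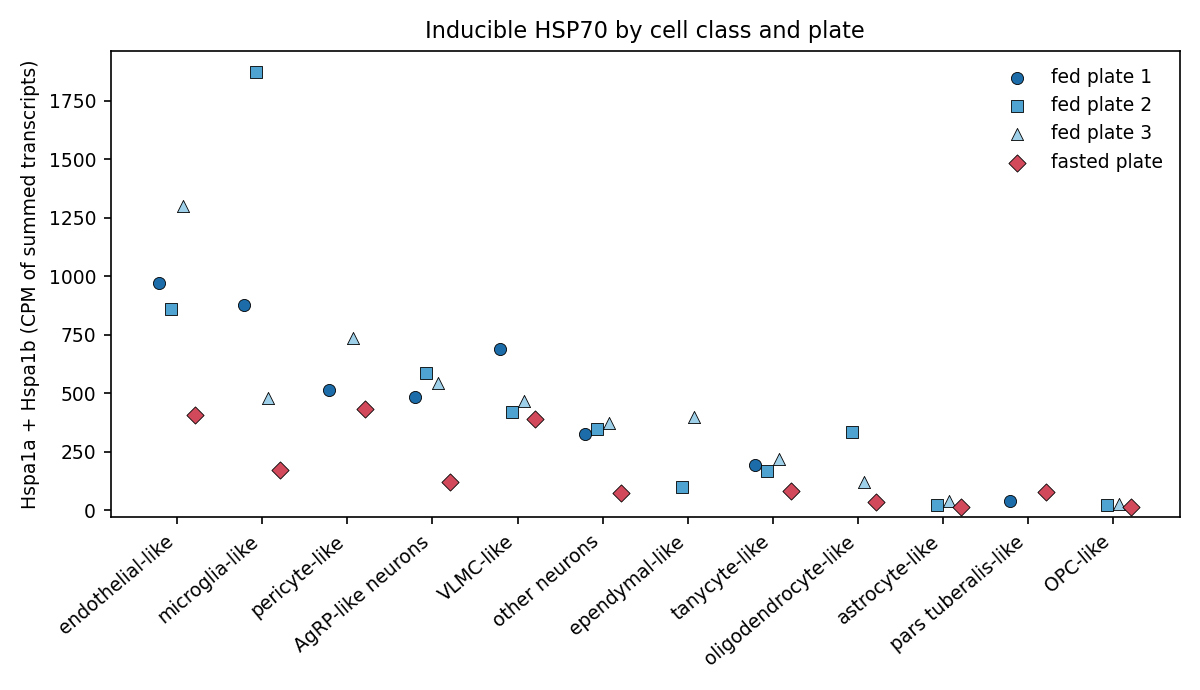
Level of Hspa1a and Hspa1b together (vertical axis, CPM of summed transcripts) by cell class (horizontal axis), 1 symbol per plate with at least 5 cells of the class. Endothelial-like cells of the fed plates lie between 861.7 and 1299 CPM. The fasted plate (red) is the lowest symbol in all classes where it is drawn but pars tuberalis-like cells. It is not drawn for ependymal-like cells, of which it held 3.

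AgRP-like neurons, known as hunger neurons of the arcuate nucleus, held more of most heat shock transcripts than the remaining cells of the same plates. Against the remaining cells 8 of the 10 genes were higher and 1 lower (edgeR's quasi-likelihood test over 4 plates, Benjamini-Hochberg adjusted p under 0.05), where 18.0 and 26.2% of all 15470 genes tested were, 44.2% together. The median of the members was 0.98 on the log2 scale against -0.04 over all genes. The HSP40 gene Dnajb1 led, at 390.6, 533.4 and 416.8 CPM in fed plates and 239.9 in the fasted one, higher than in the remaining cells by 1.49 (SE 0.16, adjusted p = 3.7e-05). The HSP110 gene Hsph1 stood at 796.9, 775.8 and 817.5 CPM in fed plates against 434.2 in the fasted one, higher by 1.40 (SE 0.16, adjusted p = 5.57e-05). Hsp90aa1 (1.04), Hspa8 (1.03), Hspe1 (1.03) and Hspd1 (0.92) were higher as well. The small heat shock gene Hspb1 went the other way, at 16.89, 32.14 and 23.84 CPM in fed plates and 6.78 in the fasted one, lower by 2.53 (log2 difference -2.53, SE 0.48, adjusted p = 0.00277). Hspa1a was higher by 0.56 (SE 0.18, adjusted p = 0.0313) and Hspb8 by 0.93 (SE 0.32, adjusted p = 0.0446), but neither passed without fed plate 2 (0.174 and 0.145), without fed plate 3 (0.102 and 0.143) or without the fasted plate (0.11 and 0.151). Hspa1b, at -0.09 (SE 0.31), did not pass. The sum of Hspa1a and Hspa1b, at 0.36 (SE 0.19, adjusted p = 0.155), did not pass either. It passed only without fed plate 1 (0.59, adjusted p = 0.0068).

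**Figure D2:**
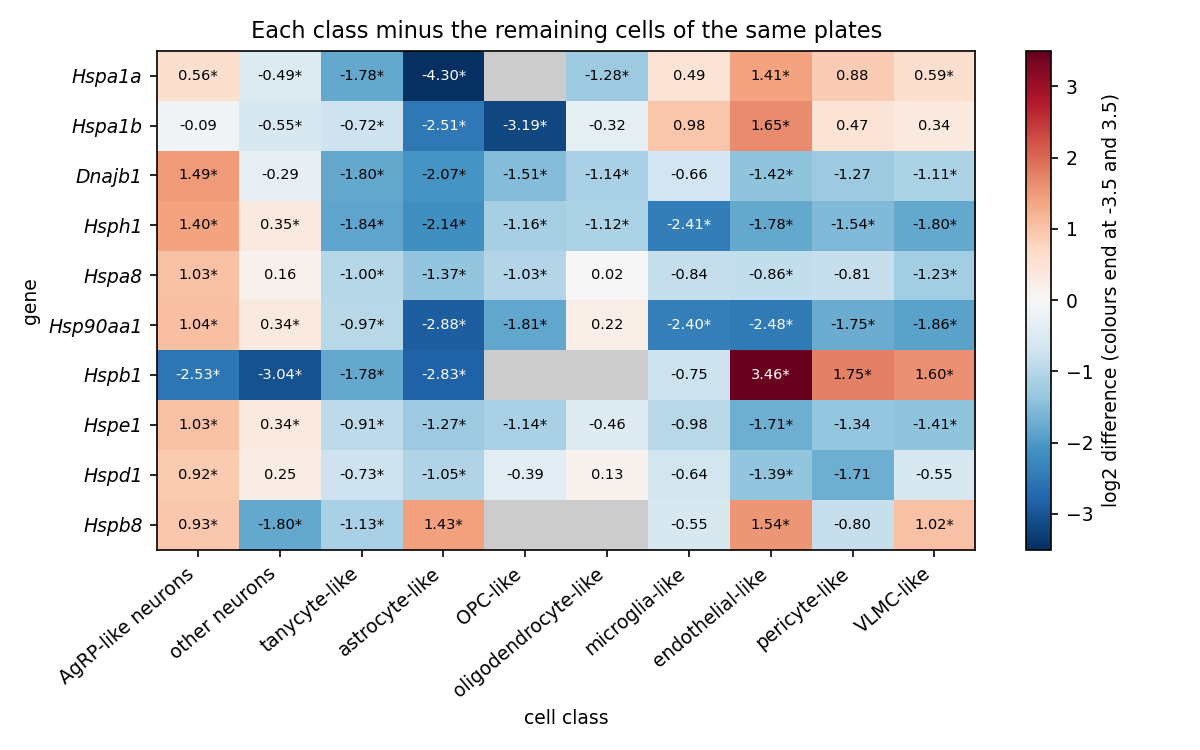
Log2 difference between each cell class and the remaining cells of the same plates (colour and number) for the 10 genes (rows) in 10 classes (columns). A star marks an adjusted p under 0.05 in edgeR's quasi-likelihood test, and grey cells hold at most 3 transcripts, so no fold is given. AgRP-like neurons are higher in Dnajb1 by 1.49, while endothelial-like cells are higher in Hspb1 by 3.46.

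Neurons were not alike. AgRP-like neurons stood above the other neurons of the same plates in 9 of the 10 genes, with none lower, where 6.70% of 12797 genes were higher and 8.74% lower. Hspb8 differed most, at 94.32, 79.03 and 66.31 CPM in fed plates and 69.71 in the fasted one in AgRP-like neurons. In other neurons the same plates gave 51.72, 16.91, 10.08 and 11.76 CPM, a log2 difference of 1.98 (SE 0.28, adjusted p = 0.000605). The groups do not overlap, and the order held on 4 of 4 plates. Dnajb1 followed, with 173.2, 250.4, 237.5 and 105 CPM in other neurons (1.10, SE 0.10, adjusted p = 5.01e-07), higher in AgRP-like neurons on 4 of 4 plates. Hspa1a stood at 184.9, 208.7, 224.2 and 58.86 CPM in other neurons against 296.6, 358.7, 339.9 and 109.4 in AgRP-like neurons (0.76, SE 0.10, adjusted p = 3.45e-05). Hsph1 (0.57), Hspa8 (0.52), Hsp90aa1 (0.40), Hspd1 (0.40) and Hspe1 (0.39) differed by less. Hspa1b was higher by 0.48 (adjusted p = 0.0366), on the 3 fed plates but not on the fasted plate, where AgRP-like neurons were at 9.865 and other neurons at 17.21 CPM. The calls of Hspa1b, Hspd1 and Hspe1 were lost without fed plate 2 (adjusted p = 0.354, 0.142 and 0.156) or fed plate 3 (0.191, 0.26 and 0.203), and that of Hspa1b also without fed plate 1 (0.151). Hspb1 (0.62, adjusted p = 0.192) did not pass. The sum of Hspa1a and Hspa1b was higher by 0.67 (SE 0.09, adjusted p = 5.6e-05).

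Other neurons, against all remaining cells, had 3 of the 10 genes higher and 4 lower, where 19.0 and 23.2% of 15380 genes were. Hsph1 (0.35), Hspe1 (0.34) and Hsp90aa1 (0.34) were a little higher, and Hspa1a (-0.49), Hspa1b (-0.55), Hspb8 (-1.80) and Hspb1 (-3.04) lower. The sum of Hspa1a and Hspa1b stood at -0.52 (SE 0.12, adjusted p = 0.00518). The counts fell to 4 called genes without the fasted plate or without fed plate 1. Hsph1 and Hspe1 did not pass without fed plate 1 (adjusted p = 0.108 and 0.172), fed plate 3 (0.15 and 0.103) or the fasted plate (0.094 and 0.17). Hsp90aa1 did not pass without fed plate 1 (0.113) or fed plate 3 (0.119), and Hspb1 not without the fasted plate (0.0561). Dnajb1, at -0.29, passed only without fed plate 3 (-0.50, adjusted p = 0.0183).

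Vascular cells had another set of heat shock transcripts. In endothelial-like cells both inducible HSP70 genes and both small heat shock genes were higher than in the remaining cells and the 6 other genes lower, where 16.4 and 28.8% of 16175 genes were, 45.2% together. Hspb1 stood at 550.1, 683.7 and 598.4 CPM in fed plates and 431.3 in the fasted one, higher by 3.46 (SE 0.22, adjusted p = 1.47e-53). Hspb8 stood at 224.6, 108.9 and 69.37 CPM and 152.6 on the fasted plate (1.54, SE 0.25, adjusted p = 6.1e-09). Hspa1b was higher by 1.65 (SE 0.21, adjusted p = 1.49e-13) and Hspa1a by 1.41 (SE 0.21, adjusted p = 9.22e-11). Their sum was higher by 1.52 (SE 0.20, adjusted p = 7.66e-13). Hsp90aa1, at 101.1, 188.1 and 181.5 CPM in fed plates and 170.6 in the fasted one, was lower (-2.48, SE 0.22). Hsph1 (-1.78), Hspe1 (-1.71), Dnajb1 (-1.42), Hspd1 (-1.39) and Hspa8 (-0.86) were lower too. These 10 calls held without each plate in turn. Immediate early genes, which tissue dissociation is known to induce, were higher in this class than in neurons. The 23 measured genes summed to 8426 to 18080 CPM in endothelial-like cells of the 4 plates, against 1582 to 2400 in other neurons and 2995 to 3710 in AgRP-like neurons, and their part in the result was not tested.

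VLMC-like cells shared part of this set, with 3 genes higher and 5 lower, where 10.4 and 16.8% of 15656 genes were, 27.2% together. Hspb1 stood at 116, 182.8 and 281.5 CPM in fed plates and 306 in the fasted one, higher by 1.60 (SE 0.27, adjusted p = 1.69e-07). Hspb8 (1.02, adjusted p = 0.00788) did not pass without fed plate 3 (0.17), and Hspa1a (0.59, adjusted p = 0.0444) not without fed plate 1 (0.0988) or the fasted plate (0.22, adjusted p = 0.575). Hsp90aa1 (-1.86), Hsph1 (-1.80), Hspe1 (-1.41), Hspa8 (-1.23) and Dnajb1 (-1.11) were lower. In pericyte-like cells, which wrap capillaries, Hspb1 was higher (1.75, adjusted p = 0.00537) and Hsp90aa1 (-1.75) and Hsph1 (-1.54) lower, where 4.24 and 5.57% of 14562 genes were, 9.81% together. None of these 3 calls held without fed plate 3 (adjusted p = 0.661, 0.42 and 0.251) or without the fasted plate (0.474, 0.189 and 0.145), and without fed plate 1 Hsph1 did not pass (0.114) while Hspa1a did (1.35, adjusted p = 0.0085).

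In tanycyte-like cells all 10 genes were lower than in the remaining cells, where 24.7% of 15598 genes were. Deep neurons weigh more in that sum, and against single classes the order differed by gene. Over fed plates Hsp90aa1 averaged 489.1 CPM, against 156.9 in endothelial-like, 225.4 in VLMC-like and 91.55 in astrocyte-like cells. Hspe1 averaged 130.8 against 68.97, 83.76 and 83.15. Hspa1a (81.86 against 575.4, 312.8 and 9.34) and Hspb1 (30.48 against 610.7, 193.4 and 8.39) exceeded astrocyte-like cells only. Hsph1, at 135.1, 152.3 and 178.1 CPM in fed plates and 73.43 in the fasted one, was lower by 1.84 (log2 difference -1.84, SE 0.15, adjusted p = 3.96e-09), followed by Dnajb1 (-1.80), Hspa1a (-1.78) and Hspb1 (-1.78). The other 6 lay between -1.13 in Hspb8 and -0.72 in Hspa1b (adjusted p = 0.0228). The call of Hspa1b was lost without fed plate 1 (0.068), 2 (0.182) or 3 (0.0786), and that of Hspd1 without fed plate 2 (0.0555). In tanycyte-like cells, unlike neurons and VLMC-like cells, Hspa1b exceeded Hspa1a on each fed plate, at 112.2, 98.25 and 122.8 CPM against 80.51, 68.16 and 96.9.

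In astrocyte-like cells 9 genes were lower and 1 higher, where 19.6 and 14.1% of 15280 genes were. Hspa1a stood at 7.49 and 11.19 CPM on fed plates 2 and 3 against 6.182 in the fasted one, lower by 4.30 (log2 difference -4.30, SE 0.43, adjusted p = 1.63e-21). That fold rests on 5 transcripts in the class. Hsp90aa1 was lower by 2.88 (log2 difference -2.88, SE 0.22), at 82.39, 100.7 and 120.6 CPM on the same plates. Hspb8 went the other way, at 127.4 and 179.1 CPM on these fed plates but 21.64 on the fasted plate. Its difference of 1.43 (SE 0.32, adjusted p = 4.64e-05) was 0.54 without fed plate 3 (adjusted p = 0.393), and Hspd1 (-1.05) did not pass without fed plate 2 (0.137). In OPC-like cells 9 genes were lower and none higher, where 13.3 and 7.70% of 14887 genes were. Hspa1b stood at -3.19, from 5 transcripts in the class, and Hsp90aa1 at -1.81 (SE 0.23). These cells held no more than 3 transcripts of Hspa1a, Hspb1 or Hspb8, and their folds are left out. Hspe1 did not pass without fed plate 2 (adjusted p = 0.0564), nor Hspb8 without fed plate 2 (0.115) or 3 (0.0574). In oligodendrocyte-like cells 5 genes were lower and none higher, where 17.5% of 14611 genes were lower and 27.5% passed in either direction. The lower genes included Hspa1a (-1.28), Dnajb1 (-1.14) and Hsph1 (-1.12), while Hspa8 (0.02), Hspd1 (0.13) and Hsp90aa1 (0.22) did not pass. Hspb1 and Hspb8, also called lower, had 1 transcript each in the class, and their folds are left out. Of the 51 oligodendrocyte-like cells 35 came from the fasted plate, and 2 or 3 genes were called without that plate, fed plate 2 or fed plate 3.

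The label of the microglia-like cells did not hold on fed plate 1. There the 9 microglia markers summed to 1496 CPM with 1 of them at 0, and the 9 endothelial markers to 12965 CPM with none at 0. On fed plates 2 and 3 and the fasted plate the microglia markers summed to 21010, 14194 and 18692 CPM and the endothelial ones to 35.9, 761.9 and 232.9. Those 14 cells of fed plate 1 held 77 of 78 Hspb1 and 42 of 43 Hspb8 transcripts of the class. Hsph1 (-2.41) and Hsp90aa1 (-2.40) were lower and none higher, where 14.7 and 7.53% of 15545 genes were, and the other 8 genes did not pass. Without fed plate 1 Hspb1 was called lower (adjusted p = 0.0175), in place of -0.75 without a call. Only 1 of its transcripts lay in the class on those plates, so that fold is left out.

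Lists of other chaperone genes differed between classes, though not all in the way the members did. In AgRP-like neurons 10 of 18 HSP70 cochaperones were higher than in the remaining cells and none lower (median 0.43 against -0.04 over all genes, of which 18.0% were higher and 26.2% lower), among them Dnaja1 (0.93), another HSP40, and the nucleotide exchange factor Bag4 (0.88). Of 12 tested genes of HSP90 and its cochaperones 8 were higher and none lower (median 0.59), with Stip1, which bridges HSP70 and HSP90, at 0.95 and Hsp90ab1, the constitutive HSP90, at 0.86. Of the 8 subunits of TRiC, the cytosolic chaperonin, 7 were higher (median 0.86), led by Cct5 (0.95) and Cct2 (0.92). The 9 other HSP70 and HSP110 genes had 4 higher and 2 lower, with a median of -0.04, the same as all genes. In endothelial-like cells 7 of the 8 TRiC subunits were lower (median -1.04 against -0.30 over all genes, of which 28.8% were lower), with Cct3 at -1.19. There 10 of 18 cochaperones were lower and 1 higher, and Stip1 stood at -1.80. In tanycyte-like cells 7 TRiC subunits were lower (Tcp1 -1.25), where 24.7% of all genes were. Their HSP90 list had 1 gene higher and 3 lower (median -0.09 against -0.08 over all genes), their cochaperones 1 higher and 6 lower (-0.20), and the other HSP70 and HSP110 genes 1 higher and 1 lower (-0.15). In astrocyte-like cells all 8 TRiC subunits (Cct7 -1.69), 9 of 12 HSP90 genes and 10 of 18 cochaperones were lower, where 19.6% of all genes were, and 1 cochaperone was higher.

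Immediate early genes went with the chaperones in some classes and against them in others. Of 23 tested, 19 were higher and 3 lower in endothelial-like cells (median 1.17, Klf4 3.81), where 16.4% of all genes were higher. In other neurons 22 were lower and 1 higher (median -1.98, Zfp36 -3.96), where 23.2% of all genes were lower. In AgRP-like neurons 14 were lower (median -1.17), where 26.2% were. In astrocyte-like cells 20 were lower (median -2.51, Fos -2.92), where 19.6% were, and in tanycyte-like cells 7 (median -0.70), where 24.7% were, with none higher in these 3 classes. Within neurons, AgRP-like cells had 10 of 20 higher and 1 lower, where 6.70 and 8.74% of all genes were, with Junb at 1.26 and Btg2 at 1.17. Single genes outside the 10 marked other classes. Cryab, a small heat shock gene of the lens and of myelin-forming cells, was higher by 6.27 (SE 0.24) in oligodendrocyte-like and 1.93 in VLMC-like cells. The HSP70 relative Hspa2 was higher by 2.91 in tanycyte-like and 1.75 in astrocyte-like cells, and Hspa12b by 4.28 in endothelial-like cells. The metallothionein genes Mt1 and Mt2, which bind metal ions, were higher by 2.58 and 2.88 in tanycyte-like and by 2.56 and 2.54 in astrocyte-like cells.

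Cells of a class differed widely in inducible HSP70. In AgRP-like neurons the sum of Hspa1a and Hspa1b had a median of 3.06, 2.68 and 1.68 per 10000 transcripts on fed plates 1 to 3 and highest cells of 34.1, 40.9 and 21.5. On the fasted plate the median was 0.629 and the highest cell 7.58. Endothelial-like cells had medians of 5.55, 0 and 2.69 in fed plates and 0.466 in the fasted one, with highest cells of 46.4, 36.5, 54.2 and 32.2. To set depth aside, each cell was thinned to 1000 transcripts. A transcript of either gene was then seen in 44.3% of endothelial-like cells of the fed plates (95% exact binomial interval 35.6 to 53.2), 29% of AgRP-like neurons (22.3 to 36.5), 25.8% of VLMC-like cells (17.1 to 36.2), 21.3% of other neurons (15.4 to 28.3) and 16% of tanycyte-like cells (11.1 to 21.9). Astrocyte-like cells had 1.47% (0.0372 to 7.92). The part of background transcripts in these shares was not tested. Without thinning, shares ran 77.1, 88.2, 60.7, 77.5, 45.9 and 13.2% for these classes in turn, at median depths of 11667, 28858, 5136, 25443, 6548 and 4539 transcripts. Over the AgRP-like cells of fed plates 1, 2 and 3, Hspa1a and Hspa1b had Spearman correlations of 0.36, 0.56 and 0.6, and their sum had 0.45, 0.32 and 0.65 with Dnajb1. On the fasted plate these values were 0.041 and 0.21. The sum had 0.41, 0.16 and 0.68 with the summed immediate early genes in AgRP-like cells of the fed plates and 0.63, 0.4 and 0.55 in other neurons. On the fasted plate it had 0.044 and 0.091 with them in these classes. In endothelial-like cells of fed plates 1 to 3 it had -0.078, 0.7 and 0.59. Other classes ranged more widely: Hspa1a and Hspa1b had 0.43, 0.17 and 0.035 in tanycyte-like cells of fed plates 1 to 3, and -0.053 and 0.21 in astrocyte-like cells of plates 2 and 3, whose sum had -0.2 and -0.23 with Dnajb1. These points share a plate and a cell total, and cells are not replicates.

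On the fasted plate inducible HSP70 transcripts were lower in neurons than on any fed plate. This contrast was known when the genes were chosen, so its values are a description without a test. In AgRP-like neurons Hspa1a stood at 296.6, 358.7 and 339.9 CPM in fed plates and 109.4 in the fasted one (log2 difference -1.57, SE 0.24). Hspa1b stood at 188, 230.1 and 204.6 CPM in fed plates and 9.865 in the fasted one (-4.36, SE 0.33), from 16 transcripts in 23 cells. The fed plates lay close together and the fasted plate far below them, and the sum differed by -2.15 (SE 0.26). Among the partners of HSP70, Hsph1 was at -0.85 (SE 0.23) and Dnajb1 at -0.87 (SE 0.24). The mitochondrial chaperonin genes were lower too, Hspe1 at 382.3, 372.4 and 339.2 against 177.8 CPM (-1.01, SE 0.23) and Hspd1 at 149.2, 153.3 and 171 against 104.3 (-0.56). The constitutive HSP70 gene Hspa8 was at its highest on the fasted plate, at 420.9, 418.3 and 370.3 CPM in fed plates and 673.3 in the fasted one (0.77, SE 0.21). Hsp90aa1, at 1193, 1132 and 1314 CPM against 1107, stood just below the fed range (-0.10, SE 0.23), and Hspb8, at 69.71 CPM, stood inside it. In all, 8 of the 10 genes were below every fed plate and 1 above, where 33.6 and 29.1% of 13112 genes were, and since this contrast chose the genes nothing is read from that share.

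**Figure D3:**
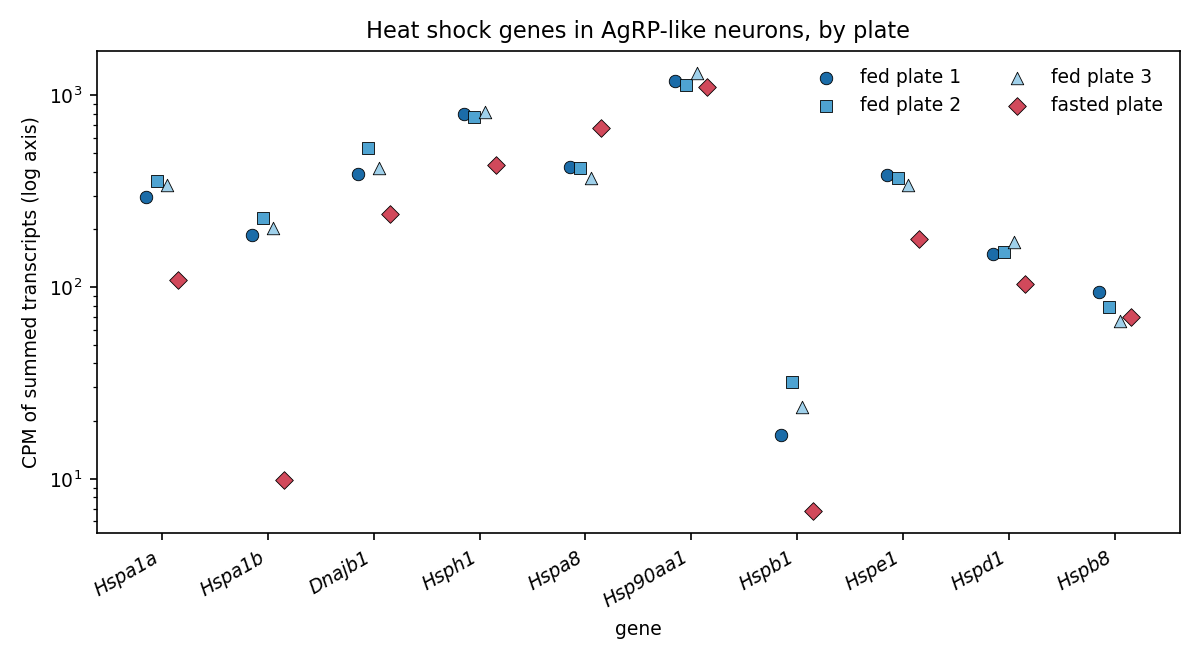
Levels of the 10 genes in AgRP-like neurons (vertical axis, CPM on a log scale), 1 symbol per plate, with 82, 59 and 28 cells on fed plates 1 to 3 and 23 on the fasted plate. Hspa1b lies between 188 and 230.1 CPM in fed plates and at 9.865 in the fasted one, while Hspa8 lies above the fed plates at 673.3.

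Other values moved with the fasted plate. Its AgRP-like neurons were deeper, at a median of 65448 transcripts against 25726 to 33199 on the fed plates, and had a median mitochondrial share of 8.32% against 6.07 to 6.76%. The pars tuberalis markers summed to 1061 CPM in them, against 203.3 to 400.5 CPM on the fed plates. The 8 oligodendrocyte markers summed to 271.4 CPM with none at 0, against 58 to 130.7 CPM, with Opalin at 0 on plate 3. The immediate early genes stood at 3049 CPM, within the 2995 to 3710 of the fed plates. The part of depth, mitochondrial share and marker levels in the result was not tested.

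In other neurons, too, the fasted plate was the lowest for both inducible genes. Hspa1a stood at 184.9, 208.7 and 224.2 CPM on the fed plates against 58.86 (-1.79, SE 0.28) and Hspa1b at 140.6, 137 and 148.1 against 17.21 (-3.02, SE 0.33). Hspa8 stood at 322, 267.1 and 299.9 against 451.9 (0.63, SE 0.24). There, too, 8 genes were below every fed plate and 1 above, where 31.2 and 29.5% of 12596 genes were. In tanycyte-like cells 8 genes were below every fed plate and none above, where 31.3 and 30.3% of 10374 genes were, with the sum of Hspa1a and Hspa1b at -1.24 (SE 0.34) and Hsph1 at -1.08 (SE 0.35). Other values moved with them. The 11 tanycyte markers summed to 16400 CPM on the fasted plate against 24080 to 25210 on fed ones, with none at 0, and the pars tuberalis markers to 1174 against 42.09 to 275.9. The immediate early genes summed to 2399 against 2971 to 5674 CPM. One of the tanycyte-like clusters, led by Scn7a, held 4 of 43 fasted cells and 23 of 49, 14 of 73 and 23 of 72 fed ones. The part of these values in the result was not tested. In endothelial-like cells Hspa1a (485.8, 475.6 and 764.7 against 305.6 CPM), Hspa1b (485.1, 386.1 and 534.3 against 103.2) and Hspb1 were below every fed plate and Hspa8 above, where 29.2 and 23.9% of 6503 genes were. Without fed plate 1, 5 genes were below and 2 above. In VLMC-like cells, with 13 cells on the fasted plate, Hspa1a stood at 457.1, 224.1 and 257.3 against 320 CPM, inside the fed range, while Hspa1b stood at 232.2, 194.6 and 208.8 against 69.51, below it. There 3 genes were below every fed plate and 2 above, where 35.6 and 32.2% of 5297 genes were, and 4 were above without fed plate 1. In astrocyte-like cells 6 were below both fed plates and 2 above, where 35.7 and 27.9% of 5320 genes were, with Hspb8 at 127.4 and 179.1 against 21.64 CPM (-2.74, SE 0.61).

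Summed over all kept cells, 6 genes were below every fed plate and 1 above, where 27.3 and 29.4% of 18228 genes were. Over all neurons 8 were below and 1 above, where 32.3 and 29.1% of 15056 genes were. These sums hold different shares of the cell classes on each plate, with oligodendrocyte-like cells at 35 of 270 on the fasted plate and 2, 8 and 6 cells on the fed plates.

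**Figure D4:**
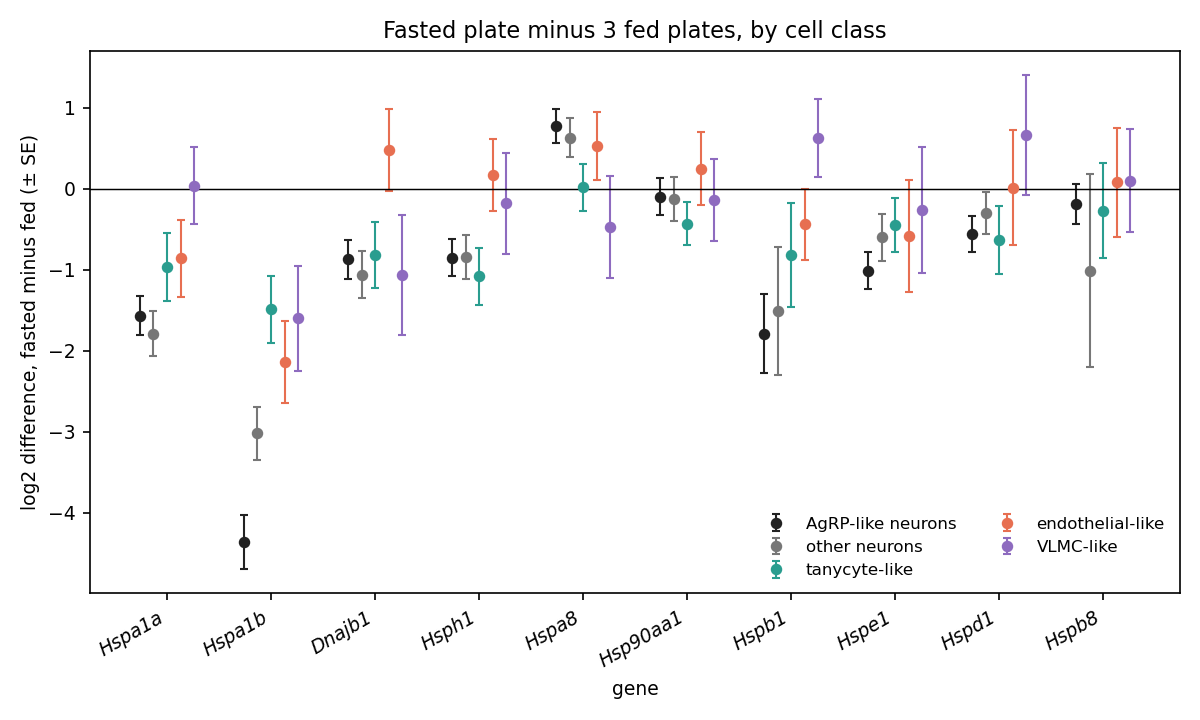
Log2 difference of the fasted plate from the 3 fed plates (vertical axis, with SE as bars) for each gene in 5 cell classes (colours). Hspa1b is lowest in AgRP-like neurons at -4.36, and Hspa8 lies above 0 in AgRP-like neurons at 0.77, other neurons at 0.63 and endothelial-like cells at 0.53.

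In neurons, endothelial-like and VLMC-like cells Hspa1b was lower by more than Hspa1a on the fasted plate, although their promoters are nearly identical in the sequences shown above. Hspa1b made up 38.8, 39.1 and 37.6% of the pair in AgRP-like neurons of fed plates 1 to 3 and 8.29% on the fasted plate (95% exact binomial interval 4.81 to 13.1, for counting error only). In other neurons it made up 43.2, 39.6 and 39.8% against 22.6% (14.2 to 33), and in endothelial-like cells 50, 44.8 and 41.2% against 25.3% (16.7 to 35.5). In VLMC-like cells the share was 33.7, 46.5 and 44.8% against 17.9% (6.06 to 36.9). Tanycyte-like cells differed in level, at 58.2, 59 and 55.9% on the fed plates, and their fasted value of 48.5% had an interval of 30.8 to 66.5 that covers them. Microglia-like cells had 50.7 and 38.5% on fed plates 1 and 2 against 44% (24.4 to 65.1). Pericyte-like cells had 34.5% on fed plate 3 against 23.1% (8.97 to 43.6). Pars tuberalis-like cells of the fasted plate had 56.8% (41 to 71.7), with no fed share beside it. How the counting split reads of the paralogs, and any difference between the animals' alleles, was not tested.

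**Figure D5:**
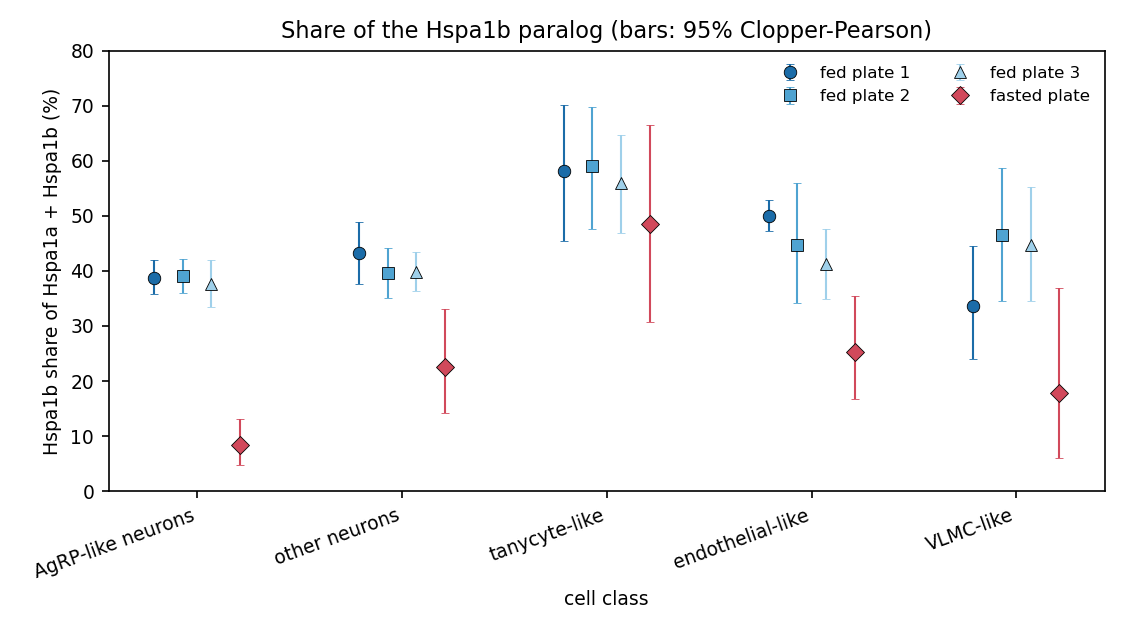
Share of Hspa1b in the transcripts of Hspa1a and Hspa1b (vertical axis, percent) by cell class and plate, with 95% Clopper-Pearson intervals as bars. In AgRP-like neurons the fed plates lie at 37.6 to 39.1% and the fasted plate at 8.29%.

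Because Y-only cells were 75.6, 25.2 and 29.6% in fed plates against 0% in the fasted one, the genes were compared between Xist-only and Y-only cells within fed plates. In AgRP-like neurons Hspa1a stood at 165.7, 263.4 and 177.2 CPM in Xist-only cells of fed plates 1 to 3 and at 284.7, 712.2 and 488.3 in Y-only cells. It was lower in Xist-only cells on 3 of 3 plates by 1.27 (log2 difference -1.27, SE 0.17, adjusted p = 0.00196), a difference already known from plates 2 and 3, so not independent support. It was 1 of 9 genes tested that passed, where 0.0498% of 8035 genes were lower, and it did not pass without fed plate 2 (adjusted p = 0.702) or 3 (0.31). Hspa1b stood at 76.91, 133 and 144.5 against 178.5, 595.9 and 212.7 CPM (-1.51, SE 0.26, adjusted p = 0.0582) and Dnajb1 at 242.8, 451 and 322.6 against 397.3, 787.5 and 501.7 (-0.73, adjusted p = 0.112), both lower on 3 of 3 plates without passing. The sum of Hspa1a and Hspa1b passed (-1.32, SE 0.16, adjusted p = 0.00072), but not without fed plate 2 (0.572) or 3 (0.0913). Xist-only cells of fed plates 1 and 3 were 7 and 6 cells, and Y-only cells of plates 2 and 3 were 11 and 13.

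In other neurons the order was not kept. Their sum of Hspa1a and Hspa1b stood at 242.9 and 258.4 CPM in Xist-only against 417.5 and 631.5 in Y-only cells of fed plates 1 and 2, but at 582.2 against 162.2 on fed plate 3. None of 9 tested genes passed there, where 0.0837% of 9558 genes did, nor any of 8 in tanycyte-like (0.0352% of 5684), 6 in VLMC-like (1.94% of 1647), or 10 each in all neurons (0.184% of 11423) and all kept cells (0.0508% of 13785). Without fed plate 3, Hspa1a (-1.08, adjusted p = 0.00653) and Hspa1b (-1.63, adjusted p = 5.33e-05) passed over all neurons.

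Among Xist-only cells alone, the fasted plate remained lower in neurons, with the sum of Hspa1a and Hspa1b at 242.6, 396.5 and 321.7 CPM in AgRP-like cells in fed plates against 120.1 in the fasted one. The log2 difference was -1.40 (SE 0.37) in place of -2.15, with Hspa1a at -0.88 and Hspa1b at -3.63. In tanycyte-like cells the sum was at -0.23 (SE 0.57) in place of -1.24, from 114.9 and 85.32 CPM on fed plates 2 and 3 against 86.72. There 3 genes were below these fed plates, where 8 were below all 3 fed plates with all cells. Fed plate 1 had too few such cells, so the set of fed plates changed as well. The share over all genes was not counted here, so these counts are not compared.

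Few genes of the wider chaperone system passed between the fasted plate and the fed plates, and the lists were chosen with these data known. These calls rest on 1 fasted plate assumed to vary like the fed ones, so they describe that plate. In AgRP-like neurons 6 of 12 ER chaperone genes were higher and none lower (median 0.72 against -0.02 over all genes, where 4.97% of 13122 genes passed), led by Hspa5, the HSP70 of the ER, at 1.25 (SE 0.21). No ER chaperone gene passed in other neurons (median -0.24 over 12), endothelial-like (-0.38 over 10), VLMC-like (-0.05 over 10) or astrocyte-like cells (0.07 over 9), where 0.159, 0.0154, 0.943 and 0.601% of all genes passed. None of 18 HSP70 cochaperones and none of the 8 TRiC subunits passed (medians -0.29 and -0.21). Of the HSP90 list, Fkbp4 (-0.89) and Stip1 (-0.78) were lower and Fkbp5, a target of the glucocorticoid receptor, higher (1.35). Mt2 (2.03), Mt1 (1.74) and the polyubiquitin gene Ubb (0.75) were higher, and of 21 immediate early genes only Dusp1 (-1.54) passed. In tanycyte-like cells, where 3.11% of 10381 genes passed, Fkbp4 (-1.41), Hsp90ab1 (-0.86) and the ER chaperone gene Calr (-1.42) were lower and Fkbp5 (1.29) and Ubb (0.93) higher, with Dusp1 (-2.08) among 3 lower immediate early genes.

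Across 32 sums of a class on a plate, the genes most like the sum of Hspa1a and Hspa1b in log2(CPM + 1) were, after these paralogs themselves, Isyna1 (Pearson r = 0.867), Txn-ps1 (0.813), Ppp1r2 (0.807), Capns1 (0.789), Akap12 (0.789), Rbms1 (0.774), Rpl38 (0.766), Gm9844 (0.761), Nomo1 (0.756) and Nhsl2 (0.756), out of 5469 genes with a mean of at least 50 CPM. Of the other members Hspb1 came nearest (0.656, rank 70), while Dnajb1 (0.356), Hsph1 (0.3) and Hsp90aa1 (0.0158) were far down the order. With each class set to its own mean, Hsph1 stood at 0.654 and Hspa8 at -0.449. The sums share plates and libraries, and Txn-ps1 is a processed pseudogene whose count is uncertain, so these values are a description.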

How the data were processed

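Single sorted cells were measured with CEL-seq2 on 3 fed plates and 1 fasted plate. The files hold expected counts, which the authors deposited as UMI counts corrected for UMI collisions, as the values show: 4096 UMIs are possible, and the correction added 0.784 to 2.04% per plate. Trimming with Trim Galore, alignment with STAR and the build mm10 are given in the submitters' processing notes. UMI counter and annotation: not given in the sources used here. Undoing the correction, done only to check the unit, left values at most 0.15 to 0.18 from a whole UMI. For the tests the corrected values were summed and the sums rounded to whole numbers.

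Wells with at least 1000 transcripts and a mitochondrial share under 30% were kept. No doublet caller was run, since cells were sorted 1 to a well. Kept cells with both Xist and Y-linked transcripts were 3.09, 7.45 and 15.7% on fed plates 1 to 3 and 2.22% on the fasted plate. They were left out of the comparison of Xist-only with Y-only cells. Whether such wells held more than 1 cell, or transcripts carried over from other wells, was not tested. Cells were clustered with scanpy 1.11.5 (2000 variable genes, 30 components, 10 neighbours, Leiden resolution 1.5, 26 clusters), leaving 132 genes out, the members among them. Clusters were named from 16 marker sets where at least 3 markers passed a log2 fold of 1 in 25% of cells. The limit of 40 neuron marker transcripts per 10000 was set after seeing the data.

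Counts were summed per class and plate, with at least 5 cells (10 for fasted against fed), and fitted over all genes with edgeR 4.0.16 (quasi-likelihood test, TMM, plate as a block except for fasted against fed, Benjamini-Hochberg adjusted p under 0.05). The single fasted plate was assumed to vary like the fed ones. Scripts were checked on simulated data. Binomial intervals are Clopper-Pearson at 95% and cover counting error only. Gene coordinates come from GENCODE vM21 (GRCm38), and promoters from RefSeq on GRCm38.p6. The members and lists were chosen with earlier results of these data known. Named are the 10 members, their sum for the Hspa1 pair, up to 3 genes per list with the largest called difference, and the 10 genes most like the sum. DESeq2 1.42.0, other scalings, filters, clusterings, left-out plates and Xist-only cells were the alternatives. Protein sequences are not used here. Which pars tuberalis markers were at 0 is not reported here.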

Additional observations from a re-analysis of the deposited data

Results flagged for a closer look

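For 4 members the fasted plate lay above every fed plate in at least 1 cell class and below every fed plate in another. These differences between classes were not tested. In single classes 23.9 to 32.2% of all genes lay above every fed plate and 29.2 to 35.7% below. How many of all genes did both was not counted, so nothing is read from the number of members. Hspa8 stood at 673 CPM in fasted AgRP-like neurons, above the fed plates, as it did in other neurons, endothelial-like and astrocyte-like cells, but at 97.3 CPM in VLMC-like cells it was below their fed plates. Hsp90aa1 stood at 121 CPM in astrocyte-like cells, above both fed plates, and below the fed plates in AgRP-like neurons, other neurons and tanycyte-like cells. Hspb1 stood at 306 CPM in VLMC-like cells, above the fed plates, and below them in AgRP-like neurons, other neurons, endothelial-like and tanycyte-like cells. Hspd1 stood at 97.3 CPM in VLMC-like cells, above the fed plates, and below them in both groups of neurons and in tanycyte-like cells. The VLMC-like values of the fasted plate, on which Hspa8, Hspb1 and Hspd1 depend here, rest on 13 cells.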

How the results depend on the processing

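No value that passed a test changed direction under any alternative. Of 90 called class and neuron values 80 were still called by DESeq2, 89 with RLE size factors, 84 without a filter on low counts and 60 without the replicate block, in which a plate pairs the groups taken from it. Without the block the number of called members was 5 in place of 8 in VLMC-like cells, 2 in place of 7 in other neurons, 2 in place of 9 between AgRP-like and other neurons, and 0 in place of 1 between Xist-only and Y-only AgRP-like neurons. No paired analysis of fasted against fed was possible, because only 1 plate was fasted and the labels pair it with no fed plate. Without a filter, 2 members were called between Xist-only and Y-only AgRP-like neurons, 2 over all kept cells (0 with it) and 1 over all neurons (0 with it). Leaving out 1 plate at a time gave 2 to 5 called members in oligodendrocyte-like cells, 4 to 7 in other neurons, 0 to 3 in pericyte-like cells, 0 to 1 between the sexes in AgRP-like neurons and 0 to 2 over all neurons. The members above every fed plate then numbered 2 to 4 in VLMC-like cells, 2 in endothelial-like cells and 0 to 1 in tanycyte-like cells, and those below 3 to 5 in endothelial-like cells. Among Xist-only cells 2 members were above in AgRP-like neurons, 1 below in VLMC-like cells, 5 below and 3 above in endothelial-like cells, and 3 below in tanycyte-like cells. These counts use only fed plates with at least 5 Xist-only cells of the class. With each cell weighted alike 1 was above in VLMC-like and 4 in endothelial-like cells, and 2 in the latter with TMM scaled levels, an alternative chosen after seeing the data, or RLE size factors. With each cell weighted alike, 25 of 80 called class values also moved by at least their SD between plates, while 55 stayed and none reversed. The cause of these changes was not tested. Between TMM and RLE the median of all genes moved by over 0.1 in microglia-like (0.12) and oligodendrocyte-like cells (-0.23) only. Small classes and the 1 fasted plate limit the precision.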
